A study of Mus musculus with 25 samples.

Results

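Krüppel-like factors (Klf genes) were followed across tumour-infiltrating CD8+ T cells of 4 genotypes. The members were 10 genes taken by symbol (Klf2, Klf3, Klf4, Klf6, Klf7, Klf9, Klf10, Klf11, Klf12 and Klf13), out of 17 Klf genes and 23366 gene symbols in the deposited table. They were chosen by name to set factors linked to quiescence and homing beside factors induced by stress or stimuli. The cells were CD8+ T cells that had entered B16F10 tumours, a transplanted mouse melanoma line, in C57BL/6 mice. The groups were wild type (16 libraries), Prdm1 cKO (3 libraries), c-Maf cKO (3 libraries) and Prdm1/c-Maf cDKO (3 libraries, called cDKO here). The label cKO stands for conditional knockout, a deletion restricted to certain cells. Prdm1 encodes the transcriptional repressor Blimp-1, and c-Maf is a basic leucine zipper factor encoded by Maf. The sources used here name no Cre line, age or sex of the mice, and no number of mice behind each library. The p-values therefore measure the spread between libraries.

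Klf proteins bind GC-rich and CACCC-containing DNA through zinc fingers at the carboxyl end, and their differing amino ends recruit activators or repressors. In T cells, Klf2 is known for keeping naive and memory cells quiescent and for driving S1pr1, through which cells leave tissues and lymph nodes. Its transcript is known to fall after antigen receptor stimulation. Klf4 is known to restrain CD8+ T cell proliferation and also to act in monocyte differentiation. Klf6, Klf10 and Klf11 respond to growth factors and transforming growth factor beta, and Klf9 responds to glucocorticoid hormones.

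The 250 bases before the RefSeq start are shown for the members that passed the test against wild type in at least 1 knockout group, because the results below turn on them. Coordinates are those of GRCm38.p6, while the authors' table was made on the older build mm9, so they serve only for the sequences. Each sequence runs 5′ to 3′ on the strand of its gene and ends at the base before the transcript start. Capitals mark CACCC and the GC box GGGCGG on either strand, 2 motifs that Klf and Sp proteins can bind; neighbouring matches can overlap.
Klf2, chr8:72318812-72319061, plus strand: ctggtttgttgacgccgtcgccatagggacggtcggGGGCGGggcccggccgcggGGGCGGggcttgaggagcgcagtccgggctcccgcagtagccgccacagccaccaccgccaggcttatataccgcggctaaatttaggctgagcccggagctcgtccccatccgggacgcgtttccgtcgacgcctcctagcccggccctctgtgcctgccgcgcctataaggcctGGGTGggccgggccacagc
Klf3, chr5:64803271-64803520, plus strand: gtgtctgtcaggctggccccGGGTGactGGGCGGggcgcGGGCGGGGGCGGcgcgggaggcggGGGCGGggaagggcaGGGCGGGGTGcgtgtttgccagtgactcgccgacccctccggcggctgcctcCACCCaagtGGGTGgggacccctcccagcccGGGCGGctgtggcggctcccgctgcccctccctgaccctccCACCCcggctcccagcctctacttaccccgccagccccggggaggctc
Klf11, chr12:24651121-24651370, plus strand: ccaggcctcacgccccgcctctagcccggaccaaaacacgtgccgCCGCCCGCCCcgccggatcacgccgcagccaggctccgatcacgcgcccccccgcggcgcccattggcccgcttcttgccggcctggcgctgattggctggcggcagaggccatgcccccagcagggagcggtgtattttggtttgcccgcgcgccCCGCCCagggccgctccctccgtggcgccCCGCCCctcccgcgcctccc
Klf13, chr7:63938916-63939165, minus strand: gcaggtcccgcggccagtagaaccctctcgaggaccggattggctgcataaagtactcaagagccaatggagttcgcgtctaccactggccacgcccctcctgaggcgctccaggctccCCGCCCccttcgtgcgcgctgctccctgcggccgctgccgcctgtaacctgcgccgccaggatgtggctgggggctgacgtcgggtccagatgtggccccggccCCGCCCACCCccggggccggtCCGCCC
Klf4, chr4:55532476-55532725, minus strand: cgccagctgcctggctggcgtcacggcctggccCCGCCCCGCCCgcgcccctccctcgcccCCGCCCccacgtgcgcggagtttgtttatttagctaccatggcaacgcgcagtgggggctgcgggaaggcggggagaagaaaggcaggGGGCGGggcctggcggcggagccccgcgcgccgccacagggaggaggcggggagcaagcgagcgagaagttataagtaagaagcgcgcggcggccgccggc

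The Klf3 window held 5 CACCC and 6 GC box matches, the Klf2 window 1 and 2, and the Klf13 window 1 and 3. The Klf4 and Klf11 windows each held 4 GC boxes and 0 CACCC matches. RefSeq windows were matched for 9 of the 10 members; Klf10 was the missing entry. Over these 9, CACCC was found in 6 and the GC box in 7, against 52% and 32.7% of 32851 promoter windows of the same length. The GC content of the members' windows ran from 48% in Klf12, below the median of 52.4% over all windows, to 78.4% in Klf3, and the other 8 lay above that median. GNGAAAG, letters of the kind that Blimp-1 binds, was found on either strand in the windows of Klf9 and Klf12 only, and in 19.4% of all windows. TGCTGA, the core of the sequence that Maf proteins bind, was found in 0 of the 9 and in 16.1% of all windows. GTAAACA, a forkhead factor sequence, and TGANTCA, the AP-1 sequence, were each found in Klf9 alone, against 3.17% and 6.75% of all windows. The cyclic AMP response sequence TGACGTCA was found in 0 of the 9 and in 1.55% of all windows. These matches are letters in a window and not measured binding.

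Values are the authors' normalised signal, whose scale is not stated; low values fall with transcript length as in a length-scaled unit, so levels are compared between genes on that scale only. Library totals ran from 389650 to 475956, sequencing depth is unknown, and 12749 to 15161 symbols were above 0 per library. The label check gave a Prdm1 signal of 15.5 ± 5.31 (SD, n = 16) in wild type, 2.93 ± 2.24 (n = 3) in Prdm1 cKO and 3.05 ± 1.77 (n = 3) in cDKO. Both differences had an exact two-sided permutation p of 0.00103, the smallest that 3 against 16 libraries can give. Maf was low everywhere, from 0.03 to 0.95 in wild type, and was 0 in c-Maf cKO libraries B10 and B11. The library labelled c-Maf cKO C1 had a Maf signal of 0.93, inside the wild-type range, so the members' values that rest on c-Maf cKO are also given without it. In cDKO Maf was 0 in C2, 0.18 in A1 and 0.03 in A2, the latter 2 inside the wild-type range (exact two-sided permutation p 0.0402); at so low a signal Maf is a weak check of the labels. Libraries are named by the code in their column (A1 to C2).

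The CD8 T cell markers (Cd3d, Cd3e, Cd3g, Cd8a, Cd8b1, Cd2, Lck and Cd247) were above 0 in every group, with a summed signal of 1196.81 to 3410.54 in wild type (median 2562), 1510.75 to 1935.71 in Prdm1 cKO, 2608.68 to 2715.85 in c-Maf cKO and 1432.56 to 2641.51 in cDKO (median 1684). Of these 8 markers 1 was lower in cDKO (Cd3g, -0.90, adjusted p 0.0399), where 6.85% of all genes were lower, and 0 passed in Prdm1 cKO. Transcripts of other cell types were also present. The sum of 15 macrophage and monocyte markers ran from 53.33 to 2503.05 in wild type, from 1480.80 to 4427.60 in Prdm1 cKO, from 207.50 to 1253.97 in c-Maf cKO and from 155.12 to 256.75 in cDKO. The sum of 8 erythroid markers ran from 1.38 to 1568.48, from 221.34 to 1842.35, from 15.82 to 132.88 and from 463.10 to 4254.03 in the same order. The sum of 10 dendritic cell markers ran from 36.79 to 1861.25 in wild type, from 1095.14 to 4668.37 in Prdm1 cKO, from 53.88 to 986.53 in c-Maf cKO and from 72.73 to 240.94 in cDKO; Clec9a was at 0 in Prdm1 cKO and cDKO. The sum of 9 melanoma markers ran from 7.63 to 3859.89 in wild type and from 795.06 to 1585.63 in Prdm1 cKO. It ran from 16.54 to 670.90 in c-Maf cKO and from 123.99 to 1703.23 in cDKO. Of 7 fibroblast and endothelium markers 1 was tested, and it was higher in cDKO (1.08), as were 5.09% of all genes. Of 3 tested B cell markers 1 was also higher in cDKO. Among 6 CD4 and regulatory T cell markers 2 were lower in cDKO (median -0.50), as was 1 of 10 dendritic cell markers. In Prdm1 cKO 1 of the 6 was lower (median -0.60), where 1.87% of all genes were. No neutrophil or NK cell marker passed in either group. The part of these cells in the members' differences was not tested beyond the macrophage and erythroid score covariates given below. In bulk libraries, fewer cells of a type and less RNA per cell cannot be told apart.

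In wild-type cells Klf6, an early response factor present in most tissues, had by far the highest signal of the members, 104 ± 15.5 (SD, n = 16; lowest 78.49, median 104.155, highest 138.46). Its lowest library lay above every wild-type value of the other 9 members. Next came Klf3, a CtBP-recruiting repressor, at 11.8 ± 4.88, Klf13, an activator of chemokine genes in T cells, at 10.4 ± 1.66, and Klf10, a target of transforming growth factor beta, at 10.3 ± 2.96. The ranges of these 3 overlapped, and their means lay within 1 SD of one another. Klf2 at 6.97 ± 3.52, Klf7, a close relative of Klf6, at 6.13 ± 3.23, and Klf11, a relative of Klf10, at 5.89 ± 1.93 had lower means. Their ranges overlapped one another and those of Klf3, Klf13 and Klf10. Klf4 at 1.71 ± 0.953 and Klf9 at 1.26 ± 0.905 were low. Klf12, a relative of Klf3, was at 0.372 ± 0.437, and 2 wild-type libraries reached 1. Of the quiescence and homing factors, Klf3 thus had the highest mean, and of the stimulus-induced factors, Klf6.

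**Figure D1:**
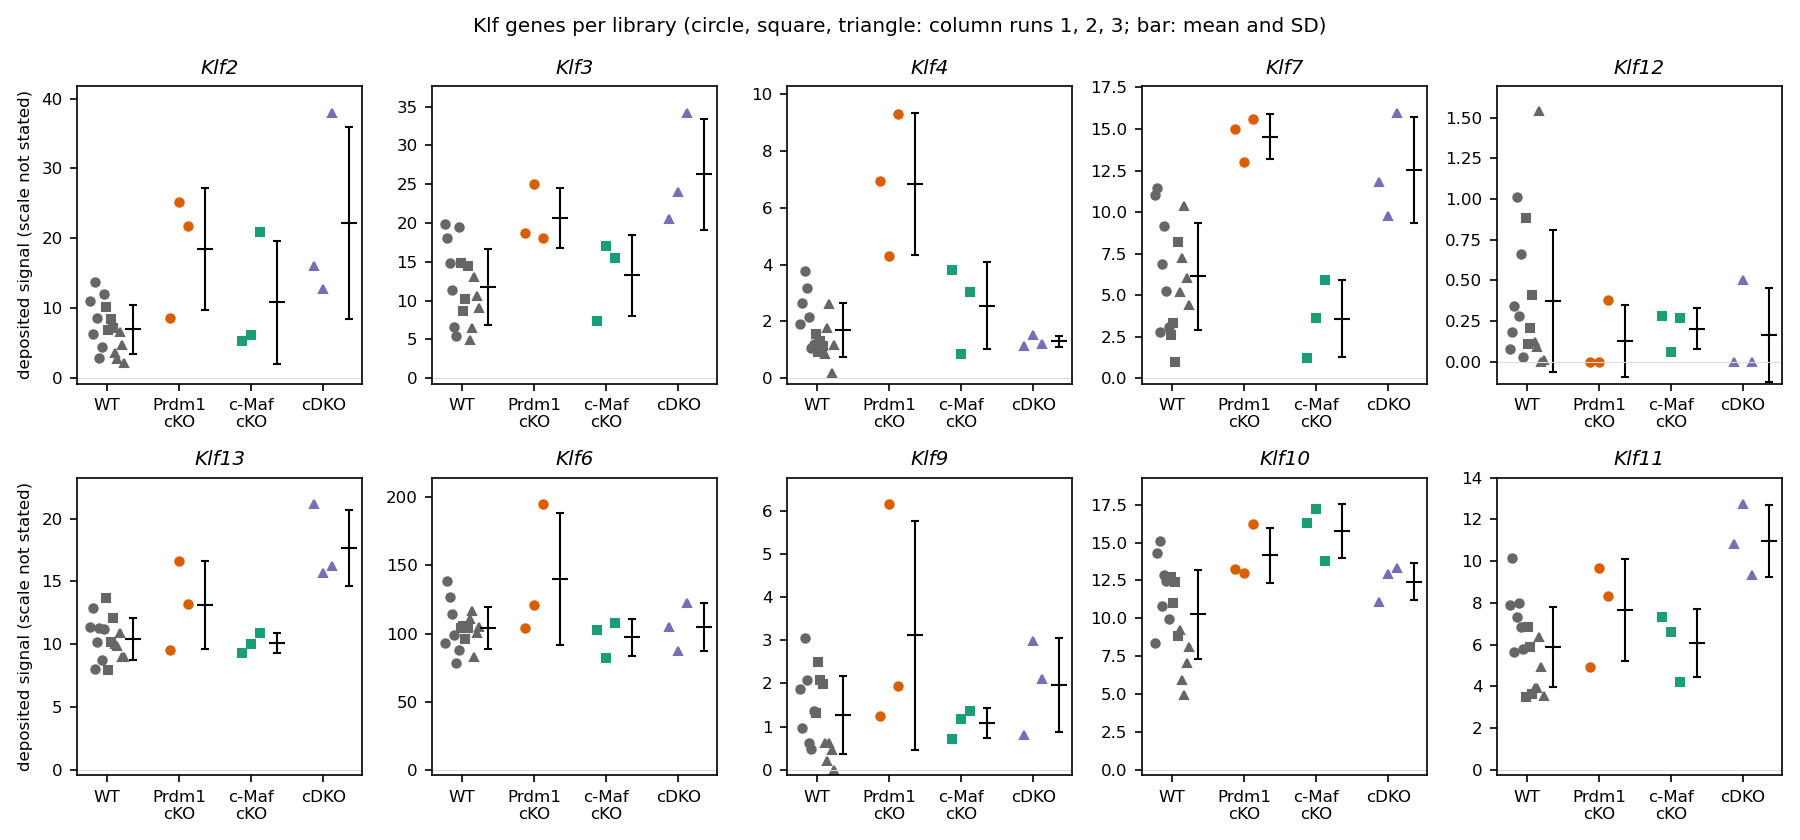
Deposited signal (linear axis, scale not stated) of the 10 Klf members in each of the 25 libraries, in columns by genotype; marker shapes give the 3 runs of adjacent table columns, and bars are mean ± SD. Klf3 and Klf13 in cDKO and Klf4 and Klf7 in Prdm1 cKO lie above every wild-type library, whereas Klf6 in cDKO (87.08 to 122.31) lies inside the wild-type range.

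In cDKO cells Klf2 and Klf3, the quiescence and homing factors with appreciable signal, rose, as did Klf11 and Klf13, while Klf6 did not differ detectably from wild type. The test was limma on log2(signal + 1), with p-values adjusted over 12251 genes, and 9 of the 10 members passed the filter on low signal; Klf12 did not. Each of the 9 reached a signal of 1 in at least 8 wild-type libraries. At an adjusted p under 0.05, 4 of 9 were higher and 0 lower; 5.09% of all genes tested were higher and 6.85% lower. The members' median log2 difference was 0.72, against -0.03 over all genes.

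Klf2 had signals of 16.01, 12.70 and 37.99 in cDKO, against 2.13 to 13.82 in wild type (median 6.74). Libraries C2 and A2 lay above every wild-type library and A1 lay inside the range. The log2 difference was 1.53 ± 0.43 (SE; adjusted p 0.0201). Without A2, the highest library, it was 1.08 (adjusted p 0.253).

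Klf3 had signals of 20.50, 24.03 and 34.22 in cDKO, against 4.86 to 19.89 in wild type (median 11). The groups did not overlap, which held for higher values in 3.12% of all genes. The log2 difference was 1.17 ± 0.32 (adjusted p 0.0165), and it was 1.22 without A1 (adjusted p 0.0609) and 0.97 without A2 (adjusted p 0.165).

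Klf4 had signals of 1.15, 1.52 and 1.22 in cDKO, inside the wild-type range of 0.17 to 3.79 (median 1.43). The log2 difference was -0.16 ± 0.32 (adjusted p 0.825), with a 95% interval from -0.82 to 0.50. A rise of the size seen for Klf2 or Klf3 lay outside that interval.

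Among the stimulus-induced factors, Klf11, which recruits the Sin3 corepressor, had signals of 10.82, 12.74 and 9.34 in cDKO, against 3.50 to 10.13 in wild type (median 5.84). Libraries C2 and A1 lay above the wild-type range and A2 just inside it. The log2 difference was 0.84 ± 0.25 (adjusted p 0.0244), and the adjusted p was 0.0702 without C2, 0.150 without A1 and 0.0711 without A2.

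Klf6 had signals of 105.00, 87.08 and 122.31 in cDKO, all inside the wild-type range. Its log2 difference was 0.01 ± 0.16 (adjusted p 0.977), with a 95% interval from -0.31 to 0.33. Klf10, with cDKO signals from 11.06 to 13.31, differed by 0.30 ± 0.22 (adjusted p 0.452), and Klf9, from 0.81 to 2.98, by 0.43 ± 0.37 (adjusted p 0.527). Both stayed inside their wild-type ranges.

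Klf13 had signals of 21.16, 15.68 and 16.22 in cDKO, against 7.98 to 13.69 in wild type (median 10.17). The groups did not overlap. The log2 difference was 0.72 ± 0.16 (adjusted p 0.00434), the smallest adjusted p among the members, and Klf13 passed under each of the 40 alternatives run, leave-one-out included, with adjusted p up to 0.0481. Klf7 had signals of 11.83, 9.76 and 15.99, against 1 to 11.46 in wild type, a log2 difference of 1.06 ± 0.40 that missed the threshold (adjusted p 0.0869); A1 lay inside the wild-type range. It passed with a pseudocount of 10 (adjusted p 0.0372), with array weights (adjusted p 0.0297) and with the macrophage score as a covariate (1.25, adjusted p 0.0400). These were 3 of the 40 alternatives run, over which its adjusted p reached 0.367. Klf12 was at 0, 0.50 and 0 in cDKO and between 0 and 1.54 in wild type (exact two-sided permutation p 0.497).

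**Figure D2:**
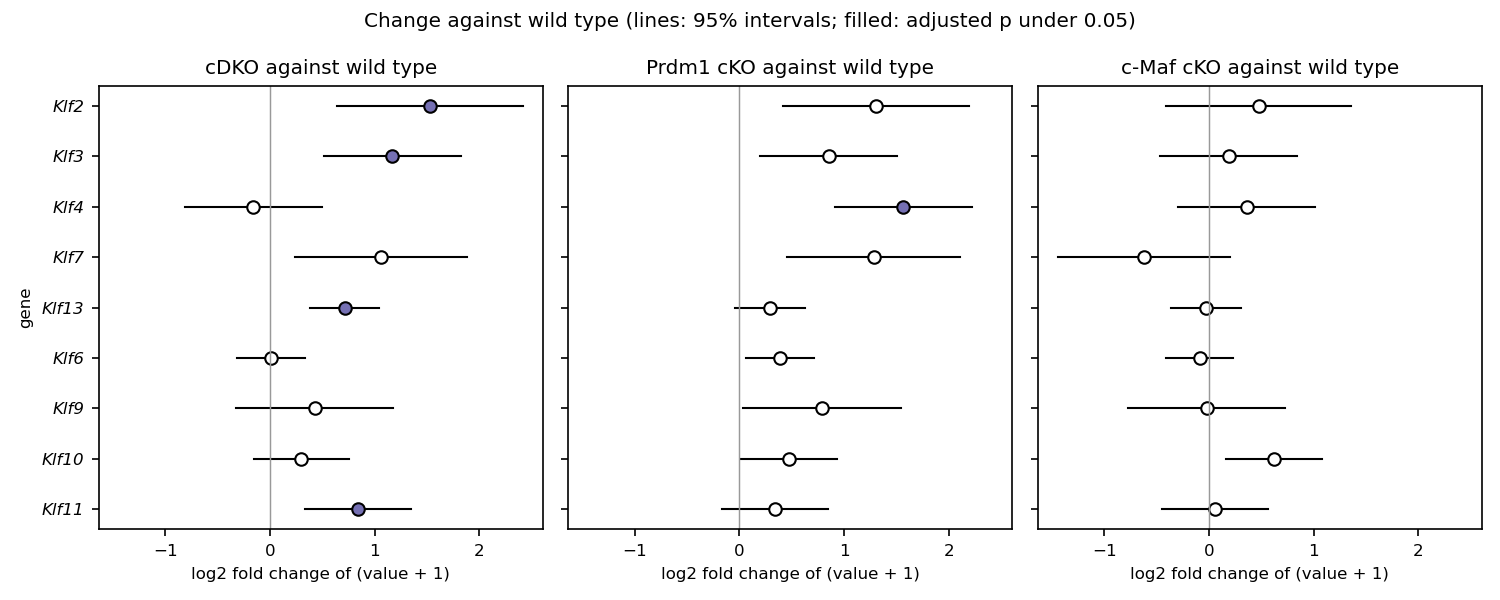
Log2 difference from wild type on the log2(signal + 1) scale, with 95% intervals, for the 9 members tested in cDKO, Prdm1 cKO and c-Maf cKO (limma, 25 libraries); filled points passed an adjusted p of 0.05. Klf2, Klf3, Klf11 and Klf13 are filled in cDKO and Klf4 in Prdm1 cKO, and the c-Maf cKO points are all open; the 3 comparisons share the wild-type libraries.

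Erythroid markers moved with the cDKO group, with 4 of 6 tested markers higher (median log2 difference 3.39), where 5.09% of all genes were higher. Klf3 and Klf13 are also known in red cell precursors. Within cDKO the erythroid sum was 463 in C2, 2276 in A1 and 4254 in A2, and Klf13 was highest in C2, whereas Klf3 was highest in A2. Wild-type library B4 had an erythroid sum of 1568 with a Klf3 signal of 10.59 and a Klf13 signal of 8.96, both below the wild-type mean. Prdm1 cKO library A9, at an erythroid sum of 1842, had Klf3 at 18.07 and Klf13 at 13.19, both above that mean. Klf1, the erythroid member of the family, was between 0 and 0.35 in cDKO and between 0 and 0.82 in wild type. With the erythroid score as a covariate, the log2 differences were 1.13 for Klf2 (adjusted p 0.262), 1.15 for Klf3 (adjusted p 0.117) and 0.65 for Klf11 (adjusted p 0.265), and Klf13 still passed. The part of erythroid cells in these differences was not tested beyond that. Over all genes 583 passed in cDKO with the erythroid score, against 1463 without it.

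**Figure D3:**
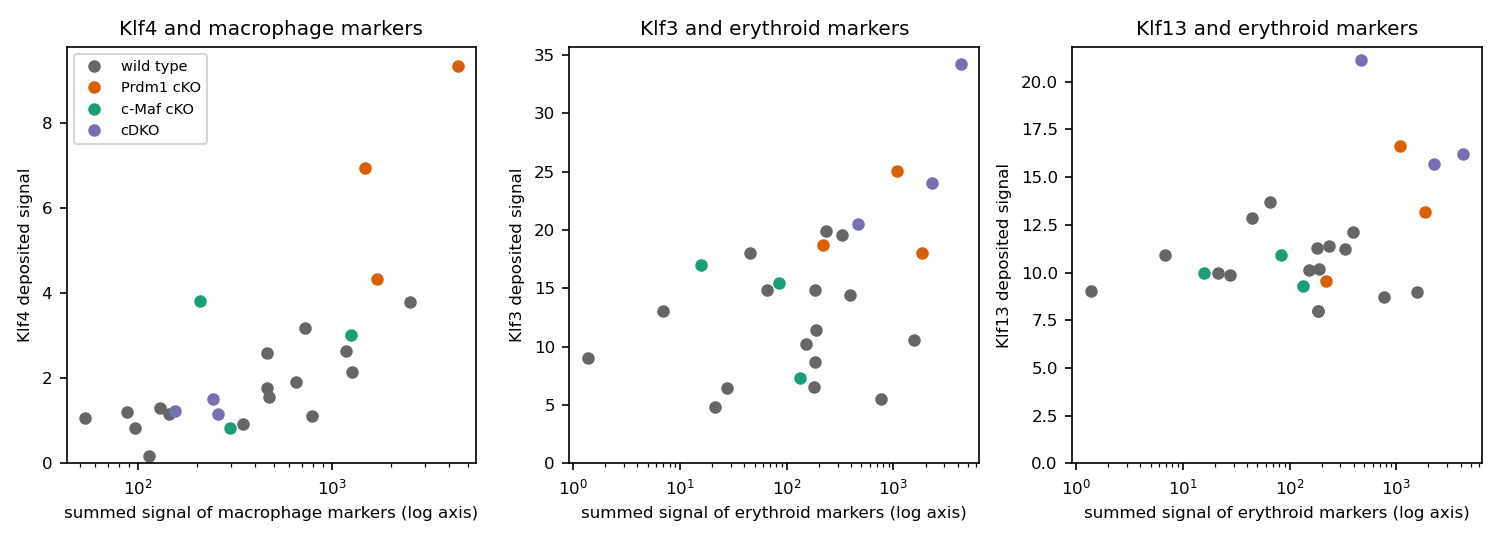
Klf4 signal against the summed signal of 15 macrophage markers, and Klf3 and Klf13 signal against the summed signal of 8 erythroid markers (log x axes, 25 libraries, coloured by genotype). The 3 Prdm1 cKO libraries are high in both Klf4 and macrophage markers. Wild-type library B4 combines an erythroid sum of 1568 with Klf3 at 10.59 and Klf13 at 8.96. Prdm1 cKO library A9 combines a sum of 1842 with 18.07 and 13.19.

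In Prdm1 cKO cells Klf4 rose and was the single member that passed. The count was 1 of 9 higher and 0 lower, where 1.58% of all genes tested were higher and 1.87% lower. All 9 differences were above 0, with a median of 0.79 against -0.02 over all genes, and 7 of 9 had an unadjusted p under 0.05, as did 20.6% of all genes. These values share the wild-type libraries with those of cDKO.

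Klf4 had signals of 6.93, 4.32 and 9.32 in Prdm1 cKO libraries A5, A6 and A9, against 0.17 to 3.79 in wild type. The groups did not overlap, which held for higher values in 0.824% of all genes. The log2 difference was 1.57 ± 0.32 (adjusted p 0.00916; 95% interval 0.91 to 2.22), and 1.34 without A9 (adjusted p 0.0941).

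The macrophage sum was high in the same libraries: 1481 in A5, 1693 in A6 and 4428 in A9. The wild-type library with the highest macrophage sum, A7 at 2503, also had the highest wild-type Klf4 signal, 3.79. Library B10 of c-Maf cKO, at a macrophage sum of 207.5, had a Klf4 signal of 3.81. Of the 15 macrophage markers, 1 was higher in Prdm1 cKO (Emr1, the F4/80 antigen), where 1.58% of all genes were higher. The median log2 difference of the 15 was 2.57. With the macrophage score as a covariate the Klf4 difference was 0.93 (adjusted p 0.293). With that score 13 of 12251 genes passed in this comparison, against 423 without it, so the loss was not particular to Klf4.

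Klf7 had signals of 15.03, 13 and 15.60 in Prdm1 cKO, all above the wild-type maximum of 11.46, with a log2 difference of 1.28 ± 0.40 that missed the threshold (adjusted p 0.0657) and passed it without wild-type library A3, A4 or B3 (adjusted p 0.0477, 0.0428 and 0.0458). Klf2 had signals of 8.59, 25.18 and 21.72, a difference of 1.31 ± 0.43 (adjusted p 0.0806); A5 lay inside the wild-type range and the other libraries above it. Without A5 the Klf2 difference was 1.76 (adjusted p 0.0414). Over the 40 alternatives run, Klf2 passed in 2 (adjusted p up to 0.806) and Klf7 in 5 (adjusted p up to 0.691). Klf3, with signals from 18.07 to 25.08, differed by 0.85 ± 0.32 (adjusted p 0.120).

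Klf6 had signals of 104.11, 120.93 and 195.08 in Prdm1 cKO, where A9 alone exceeded the wild-type range (0.39 ± 0.16, adjusted p 0.153). A9 was also the library with the highest macrophage sum. Klf10 (13.01 to 16.22; 0.47 ± 0.22, adjusted p 0.226), Klf9 (1.25 to 6.15; 0.79 ± 0.37, adjusted p 0.217), Klf11 (4.92 to 9.67; 0.34 ± 0.25, adjusted p 0.466) and Klf13 (9.57 to 16.63; 0.29 ± 0.16, adjusted p 0.310) did not pass. Klf12 was at 0, 0 and 0.38 (exact two-sided permutation p 0.385).

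In c-Maf cKO cells 0 of 9 members passed limma, where 0% of the 12251 genes tested did; 1 member, Klf10, had an unadjusted p under 0.05, as did 6.16% of all genes. Klf10 had signals of 16.31 and 17.22 in B10 and B11, above the wild-type maximum of 15.11, and 13.80 in the library labelled c-Maf cKO C1. Its log2 difference was 0.62 ± 0.22 (unadjusted p 0.00961, adjusted p 0.785), and 0.71 without C1 (adjusted p 0.838).

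Klf2 had signals of 5.37, 6.23 and 20.91 in B10, B11 and C1, so the library in which Maf was in the wild-type range was also the one with Klf2 above it. C1 also had the highest macrophage sum of this group, 1254 against 207.5 in B10 and 298.8 in B11. What the Klf2 signal of C1 goes with was not tested. The Klf2 difference was 0.47 with C1 (adjusted p 0.855) and -0.09 without it (adjusted p 0.977). Klf7 had signals of 1.22, 3.65 and 5.90, a difference of -0.62 ± 0.40 (adjusted p 0.820), and -0.99 without C1 (adjusted p 0.840). The other members differed by -0.09 to 0.36, and by -0.17 to 0.26 without C1, and Klf12 was between 0.06 and 0.28 (exact two-sided permutation p 0.581).

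Between the knockout groups, Klf7 and Klf13 were higher in cDKO than in c-Maf cKO, 2 of 9 members where 3.78% of all genes were higher. Klf7 differed by 1.68 ± 0.52 (adjusted p 0.0402) and Klf13 by 0.75 ± 0.21 (adjusted p 0.0248). Without C1 the differences were 2.05 (adjusted p 0.0371) and 0.80 (adjusted p 0.0467). Without B10 they were 1.23 (adjusted p 0.1996) and 0.69 (adjusted p 0.0821), and leaving out B11, C2 or A2 also ended both calls (Klf7 adjusted p 0.0755, 0.0646 and 0.157; Klf13 adjusted p 0.0624, 0.0893 and 0.0584). Without A1 Klf7 was at an adjusted p of 0.0680. These 2 groups stand in different runs of table columns, described below, and with the run as a covariate neither passed: Klf7 was at 0.84 (adjusted p 0.650) and Klf13 at 0.88 (adjusted p 0.138). With the run as a covariate 110 of all genes were higher in this comparison, against 463 without it. Wild-type Klf7 averaged 3.79 in the run of c-Maf cKO and 6.65 in that of cDKO.

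Between cDKO and Prdm1 cKO 0 of 9 members passed, where 0.392% of all genes did; 1 had an unadjusted p under 0.05, as did 12.6% of all genes. That member was Klf4, whose 3 cDKO signals (up to 1.52) lay below the 3 Prdm1 cKO signals (4.32 and above), an order without overlap that 8.32% of all genes showed. Its difference of -1.73 ± 0.41 was close to the threshold (adjusted p 0.0559) and was -1.98 without A6 (adjusted p 0.0282). It also passed without wild-type library A7, B3 or B4 or c-Maf cKO library B11 (adjusted p 0.0419, 0.0469, 0.0300 and 0.0455), with the difference at -1.73. It lay farther from the threshold with the run as a covariate (-1.18, adjusted p 0.437) and with the macrophage score (-0.80, adjusted p 0.749). The 15 macrophage markers differed by a median of -3.33 in the same comparison. Klf2 differed by 0.22, with a 95% interval from -0.93 to 1.37, which leaves room for a difference in either direction.

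Between Prdm1 cKO and c-Maf cKO 0 of 9 members passed, where 1.53% of all genes did, and 3 had an unadjusted p under 0.05, as did 20.7% of all genes. Klf7 came closest, at 1.90 ± 0.52 (adjusted p 0.0567), and passed without wild-type library A4, B3 or B8 (adjusted p 0.0487, 0.0444 and 0.0362); without C1 it was at 2.27 (adjusted p 0.0566). Klf7 passed in 6 of the 40 alternatives run, with adjusted p up to 0.839. The departure from additivity, the cDKO difference beyond the sum of the single-knockout differences, passed in 0 of 9 members and in 0.00816% of all genes. Klf4 had a departure of -2.09 ± 0.52 (adjusted p 0.102), and -2.34 without A6 (adjusted p 0.0463); without C1 it was -1.94 (adjusted p 0.267). The macrophage markers had a median departure of -3.31. Klf10 was the other of 2 members with an unadjusted p under 0.05, where 11.7% of all genes had one; limma gave it -0.79 (adjusted p 0.385), and -0.88 without C1 (adjusted p 0.482).

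Read by role, the quiescence and homing factors Klf2, Klf3 and Klf4 had 2 of 3 higher in cDKO and 1 of 3 higher in Prdm1 cKO: Klf2 and Klf3 in the former, where 5.09% of all genes were higher, and Klf4 in the latter, where 1.58% were. The Klf4 call was lost with the macrophage score as a covariate (0.93, adjusted p 0.293). So were most calls in Prdm1 cKO, with 13 of 12251 genes passing against 423 without the score. The cDKO calls of Klf2, Klf3 and Klf11 were lost with the erythroid score as a covariate (adjusted p 0.262, 0.117 and 0.265). With that score 583 of all genes passed in cDKO, against 1463 without it. Of the stimulus-induced factors Klf6, Klf9, Klf10 and Klf11, 1 of 4 was higher in cDKO (Klf11) and 0 of 4 in Prdm1 cKO. Of the members with other roles, Klf7 and Klf13 were tested, and 1 of 2 was higher in cDKO (Klf13; median 0.89) and 0 of 2 in Prdm1 cKO. Median log2 differences in cDKO were 1.17 for the quiescence and homing set and 0.37 for the stimulus-induced set. In Prdm1 cKO they were 1.31 and 0.43. The difference between the sets was not tested, and with 2 to 4 genes a set these counts say little. Grouped by protein type, the Sin3-binding members Klf9, Klf10, Klf11 and Klf13 had 2 of 4 higher in cDKO, and the activator-type members Klf2, Klf4, Klf6 and Klf7 had 1 of 4.

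Wild-type libraries themselves spread widely for some members. The table's columns fall into 3 runs, in which 7, 4 and 5 wild-type libraries stand beside the Prdm1 cKO, c-Maf cKO and cDKO libraries; the labels do not say that a run is a batch. Klf2 was at 8.45 ± 4.08, 8.17 ± 1.48 and 3.95 ± 1.77 in the wild-type libraries of the 3 runs, and Klf10 at 11.98 ± 2.40, 11.3 ± 1.77 and 7.06 ± 1.70. Klf9 was between 0 and 0.62 in the last run and averaged 1.49 and 1.97 in the others. By limma's F test over the 16 libraries 0 of 9 members passed, where 2.75% of all genes did, with adjusted p of 0.0568 for Klf10, 0.0654 for Klf9 and 0.166 for Klf2. Klf6 averaged 105, 102 and 103 (adjusted p 0.996).

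Set against wild type with the run as a covariate, the cDKO differences of the 4 members that had passed were larger. They were 2.15 ± 0.45 for Klf2 (adjusted p 0.00403), 1.51 ± 0.36 for Klf3 (adjusted p 0.00933), 1.12 ± 0.25 for Klf11 (adjusted p 0.00514) and 0.79 ± 0.19 for Klf13 (adjusted p 0.0104). Klf10 then passed as well, at 0.76 ± 0.20 (adjusted p 0.0165). The letter of the library code was also tried as the covariate, in place of the run. Klf2 was then at 1.09 (adjusted p 0.156), Klf3 at 1.03 (adjusted p 0.0771) and Klf11 at 0.76 (adjusted p 0.0617). With the letter, Klf13 alone passed. Over all genes 441 were higher in cDKO with the letter and 538 with the run, against 624 without either. In Prdm1 cKO the Klf4 difference was 1.27 ± 0.33 with the run as a covariate (adjusted p 0.0784), no longer past the threshold. Over all genes 22 were higher in Prdm1 cKO with the run, against 194 without it.

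**Figure D4:**
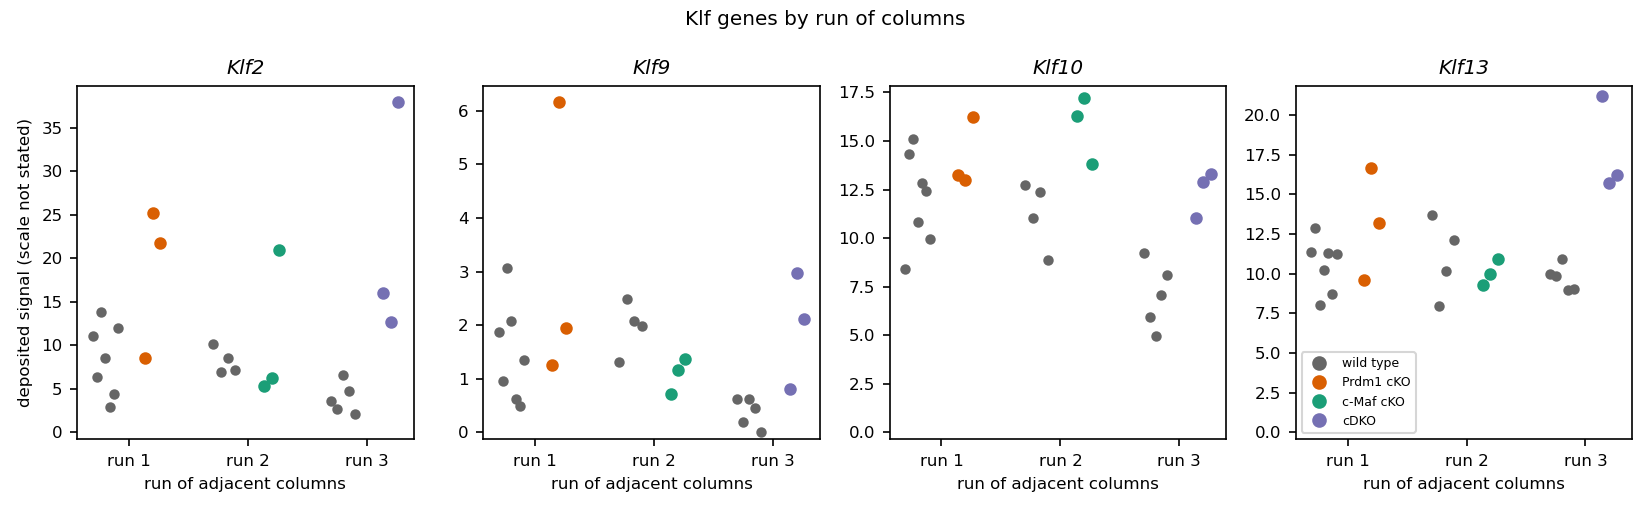
Deposited signal of Klf2, Klf9, Klf10 and Klf13 by run of adjacent table columns, wild type beside the knockout group of that run. Wild-type Klf2, Klf9 and Klf10 lie lowest in the run that holds cDKO (means 3.95, 0.378 and 7.06), whereas Klf13 has similar wild-type values in the 3 runs.

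Across the 16 wild-type libraries, which share 1 scaling and hold other cell types in varying amounts, Klf2 varied with Klf3 (Pearson r 0.76, Spearman rho 0.76; r 0.79 without the 2 libraries farthest from the median) and with Klf9 (0.85, 0.81 and 0.76). The next highest were Klf3 with Klf9 (r 0.51), Klf9 with Klf10 (0.50) and Klf3 with Klf13 (0.46), and the lowest was Klf7 with Klf10 (-0.39). These are descriptions of 16 libraries, taken from all pairs of tested members. They pool the 3 runs of columns, and wild-type Klf2 and Klf9 were both lowest in the last run (means 3.95 and 0.378). Klf9 was also near the floor, with a signal of 1 or more in 8 of the 16 libraries.

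**Figure D5:**
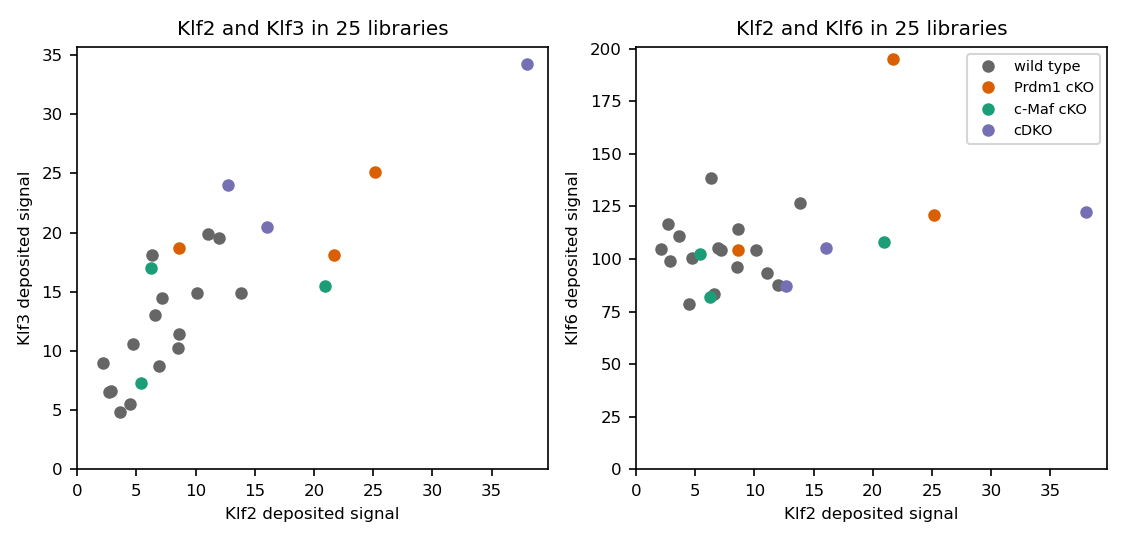
Klf3 signal and Klf6 signal against Klf2 signal in the 25 libraries, coloured by genotype. Klf3 tends to be higher where Klf2 is, with cDKO A2 (37.99 and 34.22) at the upper end and exceptions such as C1 (Klf2 20.91, Klf3 15.50) and wild-type A4 (6.34 and 18.06), whereas Klf6 lies near 104 over most of the Klf2 range.

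Genes linked to Klf2 in homing and egress were described next, from a list of 8. In cDKO 3 of 8 were higher and 0 lower, where 5.09% of all genes were higher, with a median of 0.61 against -0.03 over all genes. Ccr7, the lymph node chemokine receptor, went from a mean signal of 174 in wild type to 645 in cDKO (1.99 ± 0.33, adjusted p 0.000438). S1pr1, the egress receptor, went from 48.5 to 151 (1.74 ± 0.34, adjusted p 0.00166). Ccr7 and S1pr1 passed under each of the 40 alternatives run, and S1pr4, a related receptor (0.70 ± 0.22, adjusted p 0.0335), under 32.

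In Prdm1 cKO 1 of the 8 homing genes was higher, Cd69, an antagonist of S1pr1 at the cell surface (0.85, adjusted p 0.0303), where 1.58% of all genes were higher. Cd69 passed under 33 of 40 alternatives and was at 0.60 (adjusted p 0.561) with the macrophage and erythroid scores as covariates. With both scores 7 of all genes passed in this group, against 423 without them. Ccr7 was at 1.09 ± 0.33 in that group, short of the threshold (adjusted p 0.0617). In c-Maf cKO 0 of 8 passed.

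Of 16 genes linked to T cell quiescence, 6 were higher and 0 lower in cDKO (median 0.61), where 5.09% of all genes were higher. They included Txnip, an inhibitor of glucose uptake (1.75 ± 0.24, adjusted p 7.91e-05), the forkhead factor Foxp1 (1.14 ± 0.19, adjusted p 0.000356), the cell cycle inhibitor Cdkn1b (0.86 ± 0.16, adjusted p 0.00111) and the repressor Bach2 (1.24 ± 0.26, adjusted p 0.00265). In Prdm1 cKO 1 of 16 was higher, Bach2 (1.03, adjusted p 0.0297), where 1.58% of all genes were higher. The Bach2 call was lost with the macrophage and erythroid scores as covariates (1.12, adjusted p 0.312), where 7 of all genes passed in Prdm1 cKO. Of 7 genes of the ERK5 and Mef2 pathway, which drives Klf2 transcription, 0 passed in cDKO, Prdm1 cKO or c-Maf cKO; the median in cDKO was 0.18.

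Lists that go with the stimulus-induced members were read beside them, against the 5.09% of all genes that were higher in cDKO and the 1.58% in Prdm1 cKO. Of 20 immediate early genes, 4 were higher in cDKO (Fosl2, Junb, Myc and Jun; median 0.35) and 4 in Prdm1 cKO (Jun, Egr2, Zfp36 and Junb; median 0.73), with 0 lower. Over the alternatives the cDKO count ran from 0 (without A2) to 8 and the Prdm1 cKO count from 0 (with the macrophage score as a covariate) to 9. The calls over all genes moved as well. Without A2 246 of all genes were higher in cDKO, against 624 in the main fit. With the macrophage score 6 were higher in Prdm1 cKO, against 194. Of 6 tested glucocorticoid-induced genes 2 were higher in cDKO, Tsc22d3 (1.19 ± 0.23, adjusted p 0.00126) and the clock gene Per1 (0.83 ± 0.19, adjusted p 0.00435), while Klf9 in the same libraries did not pass. Of 12 transforming growth factor beta pathway genes 1 was higher in cDKO (Tgfbr2, 0.51) and 2 in Prdm1 cKO (Tgif1, 0.93, and Ski, 0.84). Tgfbr2 was lost without A2 (adjusted p 0.140), and Tgif1 and Ski with the macrophage and erythroid scores as covariates (adjusted p 0.351 and 0.525). With both scores 7 of all genes passed in Prdm1 cKO. Of 8 corepressors that Klf proteins recruit, 1 was lower in cDKO, the deacetylase Hdac1 (-0.88 ± 0.26, adjusted p 0.0248), where 6.85% of all genes were lower; it passed under 32 of 40 alternatives. In c-Maf cKO 0 genes of these lists passed.

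The other 7 Klf genes were low. Klf15 and Klf16 were the 2 that passed the filter, and neither passed the test in a knockout group. Klf16 averaged 2.06 in wild type and 2.63 in cDKO (0.31 ± 0.30, adjusted p 0.593). Klf8 was between 0 and 0.11 in cDKO and averaged 0.385 in wild type, too low for the fit across genes. Of 9 Sp genes, the nearest relatives of the Klf genes, 4 were tested and 0 passed in the comparisons with wild type.

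The genes whose pattern over the 25 libraries was most like a member's were taken by Pearson r of log2(signal + 1), 3 for each member, with no test; the libraries share scaling, genotype and other cell types. For Klf2 they were Ubr4 (0.88), Trpc4ap (0.86) and Itpkb (0.85), and for Klf3 Ubr4 (0.88), Itpkb (0.87) and Rb1cc1 (0.85), so Klf2 and Klf3 shared 2 of 3. Within the 16 wild-type libraries Klf2 and Ubr4 had an r of 0.83. For Klf4 they were Lrp1 (0.87), Sirpb1b (0.86) and Trim47 (0.85), with values of 0.85, 0.73 and 0.58 within wild type.

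For Klf10 they were Nfkbia (0.80), Junb (0.77) and Nfkb1 (0.75), genes of the NF-kappaB and AP-1 responses, and for Klf6 Clec4b1 (0.75), Zfp36 (0.75) and Tbc1d9 (0.73). For Klf13 they were Rps24 (0.86), Foxp1 (0.86) and Rps19 (0.85), with lower values of 0.55, 0.66 and 0.44 within wild type. For Klf7 they were Elmsan1 (0.83), Slc12a7 (0.82) and Tfe3 (0.82), for Klf9 March5 (0.85), Ube2j2 (0.82) and Ipmk (0.81), and for Klf11 Nt5e (0.80), Mir17hg (0.78) and Ssh2 (0.77). Within wild type the values, in the same order, were 0.72, 0.59 and 0.68 for Klf6 and 0.63, 0.69 and 0.60 for Klf11. They were 0.88, 0.78 and 0.72 for Klf10, 0.82, 0.85 and 0.79 for Klf7, and 0.89, 0.87 and 0.85 for Klf9.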

How the data were processed

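Libraries of CD8+ T cells were made with an adapted SMART-Seq 2 method, per the labels' protocols. The deposited table holds a normalised signal per gene symbol made by the authors with TopHat, RSEM and DESeq on mm9, per the submitters' processing notes; the sources used here give no versions, scale or step order. Among genes averaging under 1, the median lowest signal above 0 fell from 0.11 in the quartile of shortest transcripts to 0.02 in the longest. Depth is unknown, so no counting interval is given and count tests were not run. Columns were assigned to genotypes by their name endings; 0 columns were left over and 0 pairs were identical.

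Here log2(signal + 1) was fitted with limma 3.58.1 (R 4.3.3; trend and robust) over 25 libraries, on 12251 genes with a signal of at least 1 in at least 3 libraries, with Benjamini-Hochberg adjustment over all of them and a threshold of 0.05. Differences are on that scale and understate changes of low genes. Single low genes were tested by exact permutation of deposited values. Members, lists and tests were chosen with earlier results of these data known. A gene of the homing list is not reported here and was left out of its counts. Named genes are all members, for each pathway list the genes with the smallest adjusted p in cDKO or those that passed, and for likeness the 3 genes of highest r. Alternatives covered pseudocount, filter, scaling, groups fitted, covariates and leaving out each library. Macrophage-only and erythroid-only covariates were added after seeing the data. Promoters came from RefSeq (GRCm38.p6).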

Additional observations from a re-analysis of the deposited data

How the results depend on the processing

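No call of a member reversed. Of the members, 4 passed in cDKO against wild type. This was 1 with the code letter, with both marker scores and with the erythroid score alone as covariates (Klf13 each time). Of all genes 624 were higher in the main fit, and 441, 297 and 289 with these covariates in that order. The member count was 5 with a pseudocount of 10, array weights, the run or the macrophage score (Klf7, or Klf10 with the run, in addition). Of all genes 719, 1061, 538 and 631 were then higher, in that order. With a library left out the member count was 1 to 4, the lowest without A2, where 246 of all genes were higher. The count for Prdm1 cKO against wild type, 1, was 2 with a pseudocount of 10 and 3 with rescaling to CD3 genes. Of all genes 194 were higher in the main fit, and 419 and 521 with these settings. The member count was 0 with a filter of 10, which removed Klf4 from the test. It was also 0 with the run, the letter, both scores or the macrophage score as covariates. With these covariates 22, 17, 4 and 6 of the 12251 genes were higher, in that order, so few genes of any kind passed. With a library left out the member count was 0 to 2. For c-Maf cKO it was 0 with each library left out. For cDKO against Prdm1 cKO the count of 0 was 1 with a pseudocount of 10, quantile normalisation or the letter, and 0 to 1 with a library left out. Over all genes 103, 69 and 167 passed with these 3 settings, against 48 in the main fit. For cDKO against c-Maf cKO the count of 2 was 1 with a pseudocount of 0.1, no filter, the groups compared alone, both scores or the erythroid score. It was 0 with the run or the letter, and 0 to 2 with a library left out. Of all genes 463 were higher in the main fit and 265 with the groups compared alone. Both scores gave 167, the erythroid score 156, the run 110 and the letter 279. For Prdm1 cKO against c-Maf cKO the count of 0 was 2 with a pseudocount of 10 and 1 with CD3 rescaling or the groups compared alone. It was 0 to 1 with a library left out. Over all genes 196, 383 and 247 passed with these settings in that order, against 187 in the main fit. For additivity the count of 0 was 1 with a pseudocount of 10 and 0 to 1 with a library left out. Over all genes 15 passed with a pseudocount of 10, against 1 in the main fit. Fitting only the groups compared gives no separate value there. The causes of these changes were not tested. Rescaling to CD3 genes moved the median of all genes to 0.31 in cDKO and 0.37 in Prdm1 cKO. No paired analysis was possible because the columns carry no replicate numbers. Each knockout group has 3 libraries of unknown depth, which limits what can be resolved for Klf4, Klf9 and Klf12 at their low signals.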
